A study of Mus musculus with 19 samples.

Results

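The mitochondrial ribosomal protein genes, the nuclear *Mrpl* and *Mrps* genes that encode the protein part of the ribosome inside mitochondria, were examined in mouse small intestinal crypts. Members were all protein-coding genes whose symbol in the GRCm38 annotation began with *Mrpl* or *Mrps* followed by a digit. This gave 78 genes (49 *Mrpl* and 29 *Mrps*) of 55487 genes listed, and all 78 were among the 17875 genes that passed the filter on low counts. RNA was sequenced from crypts of 19 C57BL/6 mice of both sexes, 1 library per mouse, in 4 groups: *Nt*+/+ mice fed ad libitum (n = 5), *Nt*-/- mice fed ad libitum (n = 4), *Nt*+/+ mice fasted for 48 hours with water (n = 5), and *Nt*-/- mice fasted for 48 hours with water (n = 5). *Nt* is the gene for neurotensin (symbol *Nts*), a peptide hormone of enteroendocrine cells that is lacking in *Nt*-/- mice. Crypts were released with EDTA from the proximal part of the small intestine, so each library holds stem, progenitor, Paneth, and other epithelial cells together. The study describes both genotypes as carriers of the Lgr5-EGFP-IRES-CreERT2 reporter allele and also kept lines without it, and the labels of these samples do not name it.

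Mitochondria keep a ribosome of their own, which translates the few mRNAs of mitochondrial DNA into core subunits of the respiratory chain and of ATP synthase. Its ribosomal RNAs come from mitochondrial DNA, but all of its proteins are encoded in the nucleus, made in the cytosol, and imported. The large subunit joins amino acids and holds the exit tunnel, and the small subunit reads the mRNA. In the crypt, mitochondrial activity is known to differ between stem, Paneth, and differentiating cells.

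Total counts ranged from 9059457 to 35068711 per mouse (median, 18541819), and a member had a median of 455 counts in a mouse. CPM below is the count scaled to library size with TMM factors. With free access to food, *Nts* itself averaged 7.82 ± 0.773 CPM in *Nt*+/+ mice (SD, n = 5) and 0.314 ± 0.29 CPM in *Nt*-/- mice (SD, n = 4). One fasted *Nt*+/+ mouse, replicate 5, is *Nt*+/+ by title but *Nt*-/- by its genotype field. It was kept where its title puts it, and with it included *Nts* ranged from 4.98 to 5.71 CPM among fasted *Nt*+/+ mice. One library, replicate 1 of the ad libitum–fed *Nt*+/+ mice, stood apart with 18200 summed CPM of the mitochondrial ribosomal RNAs against 530 to 4450 in the other 18 mice. Epithelial markers were present in all groups, and markers of stroma and vessel summed to 2.16 to 8.31 CPM. In ad libitum–fed mice, markers of enterocytes summed to 5020 to 10900 CPM and markers of dividing cells to 1580 to 1870 CPM. In fasted mice these sums were 10200 to 24100 CPM and 925 to 1420 CPM.

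Levels per length in ad libitum–fed *Nt*+/+ crypts are given in the deposited TPM, a length-scaled share of transcripts. The median was 32.0 TPM, 58 members lay between 20 and 50 TPM, 11 lay above, and 9 lay below. For comparison, the median was 549 TPM over the 84 cytosolic ribosomal protein genes. It was 163 TPM over the nuclear genes for subunits of the respiratory chain and of ATP synthase. The median over the large-subunit members (n = 51, with *Mrps30* and *Mrps18a*, whose proteins sit in the large subunit) was 31.0 TPM, and over the other 27 it was 32.7 TPM.

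**Figure D1:**
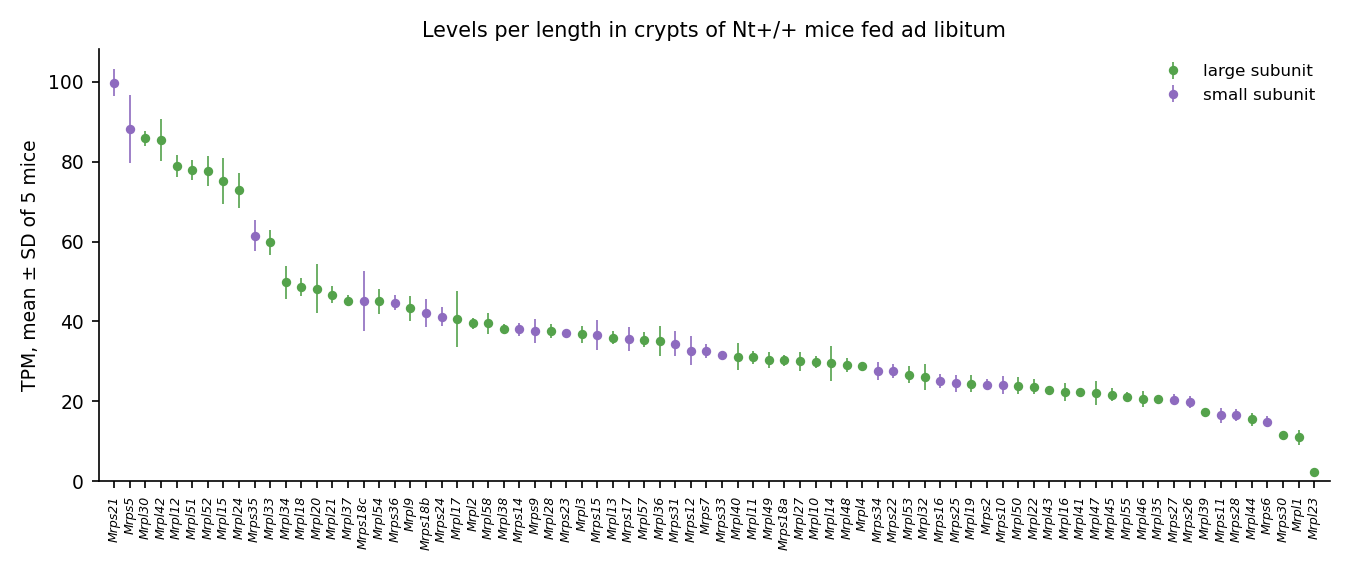
Level of each member in crypts of ad libitum–fed *Nt*+/+ mice (TPM on the vertical axis; points, mean of 5 mice; bars, SD), ordered from highest to lowest and colored by ribosomal subunit. Values run from 99.8 TPM for *Mrps21* to 2.38 TPM for *Mrpl23*, and 58 of the 78 lie between 20 and 50 TPM.

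The highest levels were those of *Mrps21* (99.8 ± 3.3 TPM; SD, n = 5), a small-subunit protein with a bacterial counterpart, *Mrps5* (88.1 ± 8.49 TPM), *Mrpl30* (85.9 ± 1.9 TPM), *Mrpl42* (85.4 ± 5.34 TPM), and *Mrpl12* (78.9 ± 2.82 TPM), the stalk protein that recruits translation factors. The lowest were those of *Mrpl44* (15.5 ± 1.66 TPM), *Mrps6* (14.9 ± 1.43 TPM), *Mrps30* (11.6 ± 0.8 TPM), *Mrpl1* (11.0 ± 1.83 TPM), and *Mrpl23* (2.38 ± 0.653 TPM). In this order, 72 of the 77 neighboring pairs had ranges of mean ± SD that overlapped, so most neighbors did not differ beyond their spread. The gap between *Mrpl1* and *Mrpl23* was 1 of the 5 that exceeded it. *Mrpl23* has a pseudogene, *Mrpl23-ps1*, that was assigned 9.96 to 19.1 CPM per mouse, more than *Mrpl23* itself (2.32 to 6.48 CPM), and reads of such a pair can be divided wrongly. Levels and changes of *Mrpl23* are therefore uncertain. The 3 members related to bacterial S18 were at 30.3 ± 1.36 TPM (*Mrps18a*), 42.2 ± 3.51 TPM (*Mrps18b*), and 45.1 ± 7.46 TPM (*Mrps18c*).

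Fasting in *Nt*+/+ mice lowered part of the family by small amounts. Of the 78 members, 24 fell (30.8%), against 10.4% of all genes tested. One member, *Mrpl23*, rose, against 11.2% of all genes tested. The other 53 did not pass the test. The median log2 fold change of the members was -0.19, a difference of -12.1%, and that of all genes was -0.01. Of the members, 70 lay below 0 and 8 above, and 89.7% of members against 50.9% of all genes lay below 0. Every fasted mouse was below every fed mouse for 14 members, against 6.97% of all genes. Calls were made with edgeR's quasi-likelihood test at an adjusted p under 0.05 over all genes. Without the library rich in mitochondrial ribosomal RNA 20 members fell, and without the mouse with disagreeing labels 22 fell.

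Fasting in *Nt*-/- mice lowered part of the family as well. Of the 78 members, 28 fell (35.9%), against 12.6% of all genes tested, and 0 rose, against 12.5%, in edgeR's quasi-likelihood test. DESeq2 called 23 members lower and also called 0 higher. With RLE or upper quartile scaling, edgeR called 21 and 32 members lower. All 43 members with an unadjusted p under 0.05 in the main fit were lower. The median log2 fold change was -0.22, a difference of -14.1%, and that of all genes was -0.02. Every fasted mouse was below every fed mouse for 32 members, against 10.8% of all genes. This count of fallen members rested in part on single mice, since it was 18 without replicate 2 of the ad libitum–fed *Nt*-/- mice and 18 without replicate 2 of the fasted *Nt*-/- mice. Without the pair of fasted *Nt*-/- mice of lowest depth it was 17.

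As a mean over the 78 members in each mouse, log2 CPM was 4.92, 4.59, 4.88, 4.68, and 4.71 in ad libitum–fed *Nt*+/+ mice and 4.62, 4.41, 4.67, 4.45, and 4.62 in fasted *Nt*+/+ mice. The fed and fasted groups overlapped, and fed replicate 2 was lower than 3 of the fasted mice. It was 4.75, 4.70, 4.73, and 4.75 in ad libitum–fed *Nt*-/- mice and 4.61, 4.38, 4.46, 4.47, and 4.62 in fasted *Nt*-/- mice, and these groups did not overlap. In each of the 4 groups the mouse numbered 2 in the file names had the lowest mean. The labels do not say what this number marks. Enterocyte markers rose with fasting (8 of 10 in *Nt*+/+ and 10 of 10 in *Nt*-/- mice; all genes, 11.2% and 12.5%). Markers of dividing cells fell (5 of 8 and 7 of 8; all genes, 10.4% and 12.6%). Of stem cell markers 1 of 5 and 2 of 5 fell and 0 rose. Their direction was mixed in *Nt*+/+ mice, where 2 of the 5 lay below 0 (median log2 fold change, 0.12). In *Nt*-/- mice 4 of the 5 did (median, -0.23). Of goblet cell markers 2 of 6 and 3 of 6 fell, and 1 rose in each genotype. In each other marker list at most 1 gene was called per genotype. In whole crypts, fewer cells of a type and less RNA per cell cannot be told apart, and the part of these marker shifts in the change of the family was not tested.

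**Figure D2:**
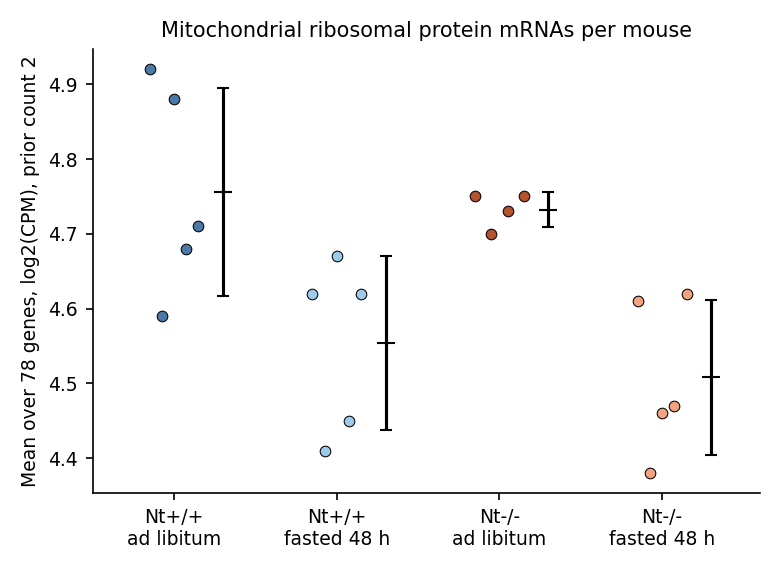
Mean log2 CPM of the 78 members in each mouse (vertical axis, prior count 2; points, mice; bars, mean ± SD of the group). The fasted *Nt*-/- mice sit between 4.38 and 4.62, all below the ad libitum–fed *Nt*-/- mice (4.70 to 4.75), whereas the *Nt*+/+ groups overlap.

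The largest decreases involved mRNAs for proteins of both subunits. *Mrps22*, a mitochondria-specific small-subunit protein (chr9:98588730-98601660, minus strand), was at 32.0, 24.2, 30.0, 28.2, and 28.6 CPM in the ad libitum–fed *Nt*+/+ mice and at 20.7, 16.6, 19, 17.4, and 24.9 CPM in the fasted ones. Only the last fasted mouse, the one with disagreeing labels, reached into the fed range. In *Nt*-/- mice it was at 25.3, 25.4, 27.4, and 29.4 CPM when fed and at 18.4, 15.3, 15.2, 20.1, and 21.3 CPM when fasted, with no overlap. The log2 fold change of *Mrps22* was -0.54 ± 0.12 (SE; adjusted p = 0.00246, edgeR) in *Nt*+/+ mice and -0.57 ± 0.12 (adjusted p = 0.00207) in *Nt*-/- mice.

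*Mrpl38*, a protein of the central protuberance of the large subunit (chr11:116131817-116138868, minus strand), was at 46.5, 35.6, 44.0, 35.3, and 39.6 CPM in fed and at 32.6, 27.4, 29.9, 22.4, and 28.3 CPM in fasted *Nt*+/+ mice. It was at 39.1, 37.6, 36.8, and 34.5 CPM in fed and at 29.7, 21.8, 19.1, 23.2, and 24.5 CPM in fasted *Nt*-/- mice. In both genotypes the highest fasted mouse was below the lowest fed mouse. The log2 fold change of *Mrpl38* was -0.51 ± 0.11 (SE; adjusted p = 0.00266, edgeR) in *Nt*+/+ mice and -0.64 ± 0.12 (adjusted p = 0.000589) in *Nt*-/- mice.

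*Mrpl34*, the counterpart of bacterial L34 (chr8:71464959-71465747, plus strand), was at 25.4, 20.5, 27, 22.6, and 18.5 CPM in fed and at 15.6, 15.8, 16.1, 14.6, and 17.1 CPM in fasted *Nt*+/+ mice. In *Nt*-/- mice it was at 22.9, 23.1, 21.8, and 20.8 CPM when fed and at 15.3, 12.1, 14.7, 13.7, and 19.1 CPM when fasted. Here, too, neither pair of groups overlapped. Its log2 fold changes were -0.53 ± 0.11 (SE; adjusted p = 0.00222, edgeR) and -0.56 ± 0.12 (adjusted p = 0.00186).

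*Mrpl47*, which lies beside the exit tunnel (chr3:32725397-32737605, minus strand), was at 29.4, 20.6, 26.4, 23.2, and 23.6 CPM in fed and at 19.9, 14.9, 17.8, 16.4, and 21.8 CPM in fasted *Nt*+/+ mice, where 1 fasted mouse exceeded the lowest fed mouse. It was at 24, 27, 27.7, and 28.0 CPM in fed and at 16.9, 17.4, 16.7, 18.3, and 18.8 CPM in fasted *Nt*-/- mice, with no overlap. Its log2 fold changes were -0.44 ± 0.10 (SE; adjusted p = 0.00514, edgeR) and -0.60 ± 0.11 (adjusted p = 0.000552). Its deposited count was not whole in any mouse, which can mean reads divided with other genes.

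The remaining members among the 6 with the lowest fold changes in a genotype had values of like size in both. *Mrpl36* had log2 fold changes of -0.50 ± 0.14 (SE) in *Nt*+/+ and -0.46 ± 0.15 in *Nt*-/- mice, *Mrpl18* of -0.48 ± 0.09 and -0.42 ± 0.09, *Mrpl21* of -0.46 ± 0.10 and -0.52 ± 0.11, and *Mrps21*, the most abundant member per length, of -0.40 ± 0.09 and -0.50 ± 0.10. All were called lower in both genotypes. *Mrps36* also fell in both (-0.48 ± 0.10 and -0.32 ± 0.10), although its protein is now known as a part of the 2-oxoglutarate dehydrogenase complex rather than of the ribosome.

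**Figure D3:**
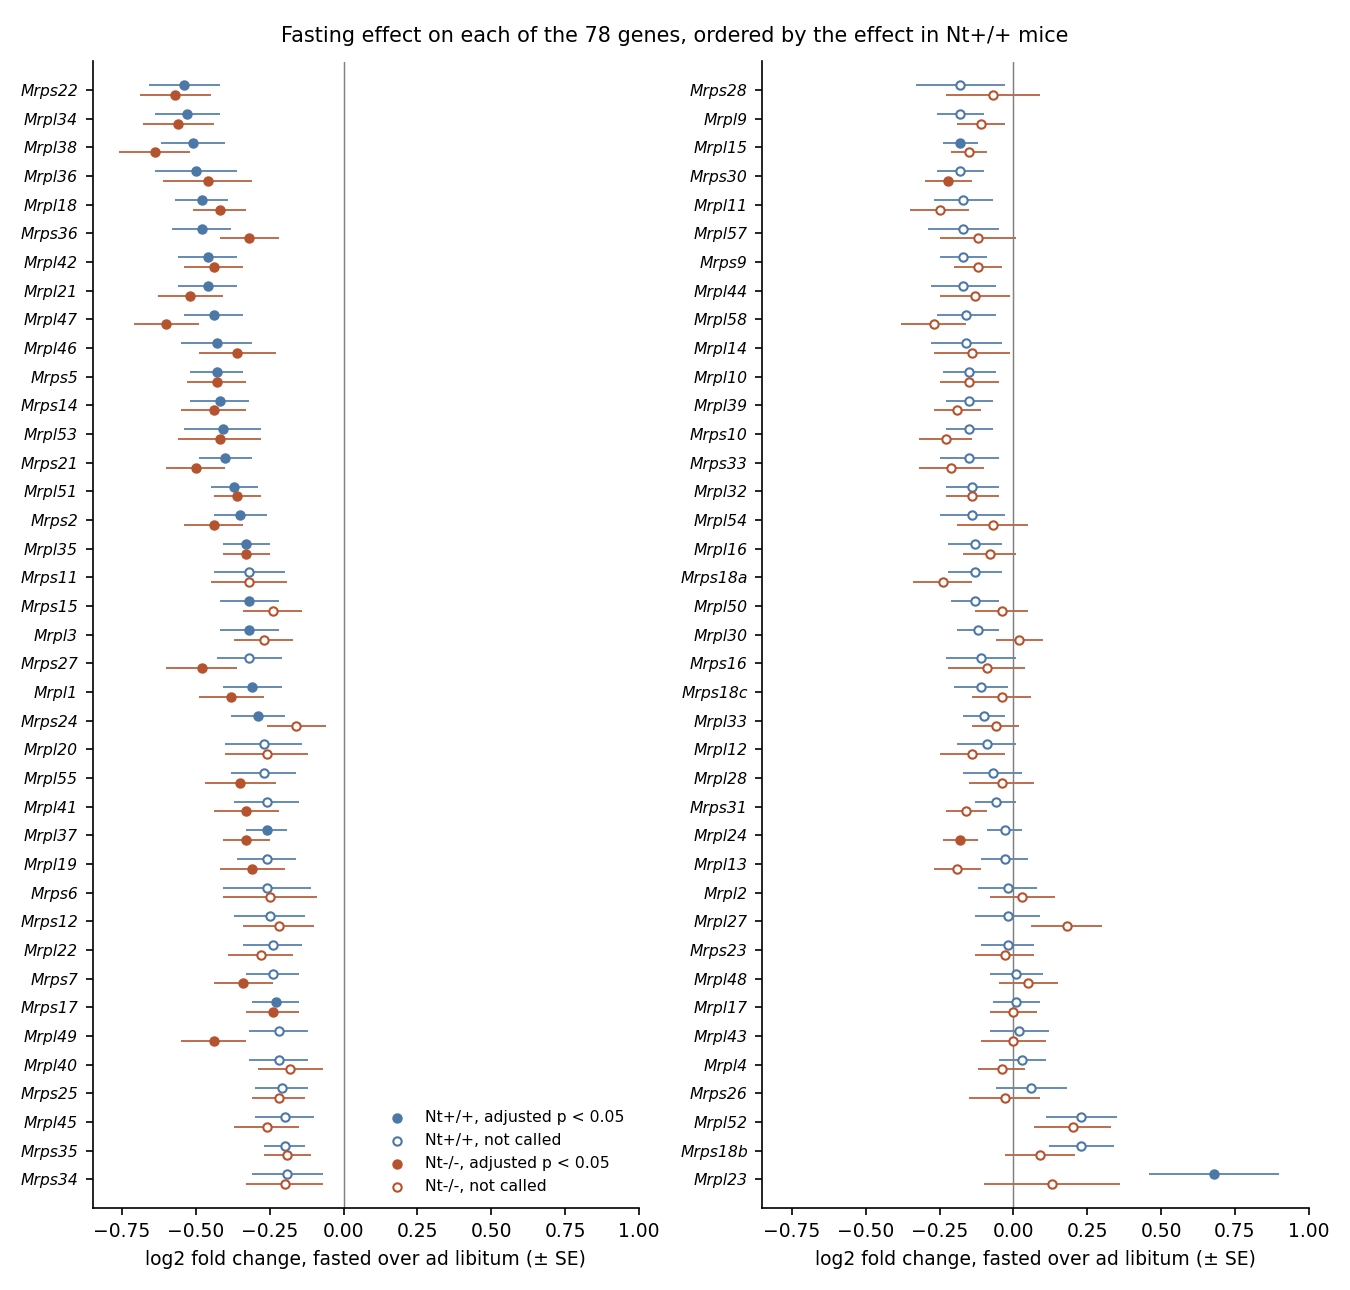
Log2 fold change with fasting (horizontal axis, fasted over ad libitum–fed; bars, SE) of each of the 78 members in *Nt*+/+ (blue) and *Nt*-/- (red) mice, ordered by the value in *Nt*+/+ mice; filled points had an adjusted p under 0.05. Most points of both genotypes lie between 0 and -0.64, with *Mrpl23* alone called on the right.

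Among small-subunit members fixed for their role, *Mrps5*, the counterpart of bacterial S5, was at 70.7, 54.4, 70.3, 57.0, and 61.5 CPM in fed and at 46.2, 43.3, 51.3, 40.3, and 51.2 CPM in fasted *Nt*+/+ mice, without overlap, and it fell in both genotypes (log2 fold change, -0.43 ± 0.09 and -0.43 ± 0.10; SE). *Mrps2* fell as well (-0.35 ± 0.09 and -0.44 ± 0.10). *Mrps12*, the protein of the decoding center, had log2 fold changes of -0.25 ± 0.12 and -0.22 ± 0.12 and did not pass the test in either genotype (adjusted p = 0.144 and 0.22, edgeR).

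The genes for the stalk of the large subunit were not called. *Mrpl12*, among the most abundant members, was at 94.4, 69.0, 92.1, 76.2, and 77.0 CPM in fed and at 74.5, 62.4, 94.6, 71.8, and 80.2 CPM in fasted *Nt*+/+ mice, and the 2 groups covered much the same range. Its log2 fold change was -0.09 ± 0.10 (SE; adjusted p = 0.577, edgeR) in *Nt*+/+ and -0.14 ± 0.11 (adjusted p = 0.37) in *Nt*-/- mice. *Mrpl10*, which anchors the stalk, had -0.15 ± 0.09 and -0.15 ± 0.10, and *Mrpl11*, at the stalk base, had -0.17 ± 0.10 and -0.25 ± 0.10. *Mrpl58*, which releases peptides from stalled ribosomes, had -0.16 ± 0.10 and -0.27 ± 0.11 and was not called. *Mrpl1* of the L1 stalk, on the other side of the subunit, fell in both genotypes (-0.31 ± 0.10 and -0.38 ± 0.11).

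The members related to S18 were not called in either genotype. *Mrps18b* was at 37.2, 27.7, 40.8, 32.5, and 32.4 CPM in fed and at 41.4, 32.7, 50.8, 36.8, and 38 CPM in fasted *Nt*+/+ mice, with a log2 fold change of 0.23 ± 0.11 (SE; adjusted p = 0.164, edgeR). *Mrps18a* had log2 fold changes of -0.13 ± 0.09 and -0.24 ± 0.10, and *Mrps18c* of -0.11 ± 0.09 and -0.04 ± 0.10. Of 3 members with low levels, *Mrps30* was called lower in *Nt*-/- mice (-0.22 ± 0.08) and not in *Nt*+/+ mice (-0.18 ± 0.08), *Mrpl44*, which has a ribonuclease III–like fold, had -0.17 ± 0.11 and -0.13 ± 0.12, and *Mrps6*, which shares its strand with the overlapping genes *Slc5a3* and *Gm49711*, had -0.26 ± 0.15 and -0.25 ± 0.16. The adjusted p of *Mrps30* in *Nt*-/- mice was at the threshold (0.05), and it was called in 5 of the 19 fits that left out 1 mouse each.

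*Mrpl23*, the only member called higher, was at 2.59, 3.20, 3.37, 3.20, and 2.32 CPM in fed and at 4.06, 3.62, 5.61, 5.14, and 4.98 CPM in fasted *Nt*+/+ mice. Its log2 fold change was 0.68 ± 0.22 (SE; adjusted p = 0.0316, edgeR) in *Nt*+/+ mice and 0.13 ± 0.23 (adjusted p = 0.741) in *Nt*-/- mice. The call in *Nt*+/+ mice was lost without any 1 of 5 mice, namely fed replicates 1 and 5 and fasted replicates 3, 4, and 5. *Mrpl23-ps1* had log2 fold changes of 0.25 ± 0.11 and 0.49 ± 0.12 in the same comparisons, and it was called higher in *Nt*-/- mice (adjusted p = 0.00426). Whether reads of the pseudogene move the value of *Mrpl23* was not tested.

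**Figure D4:**
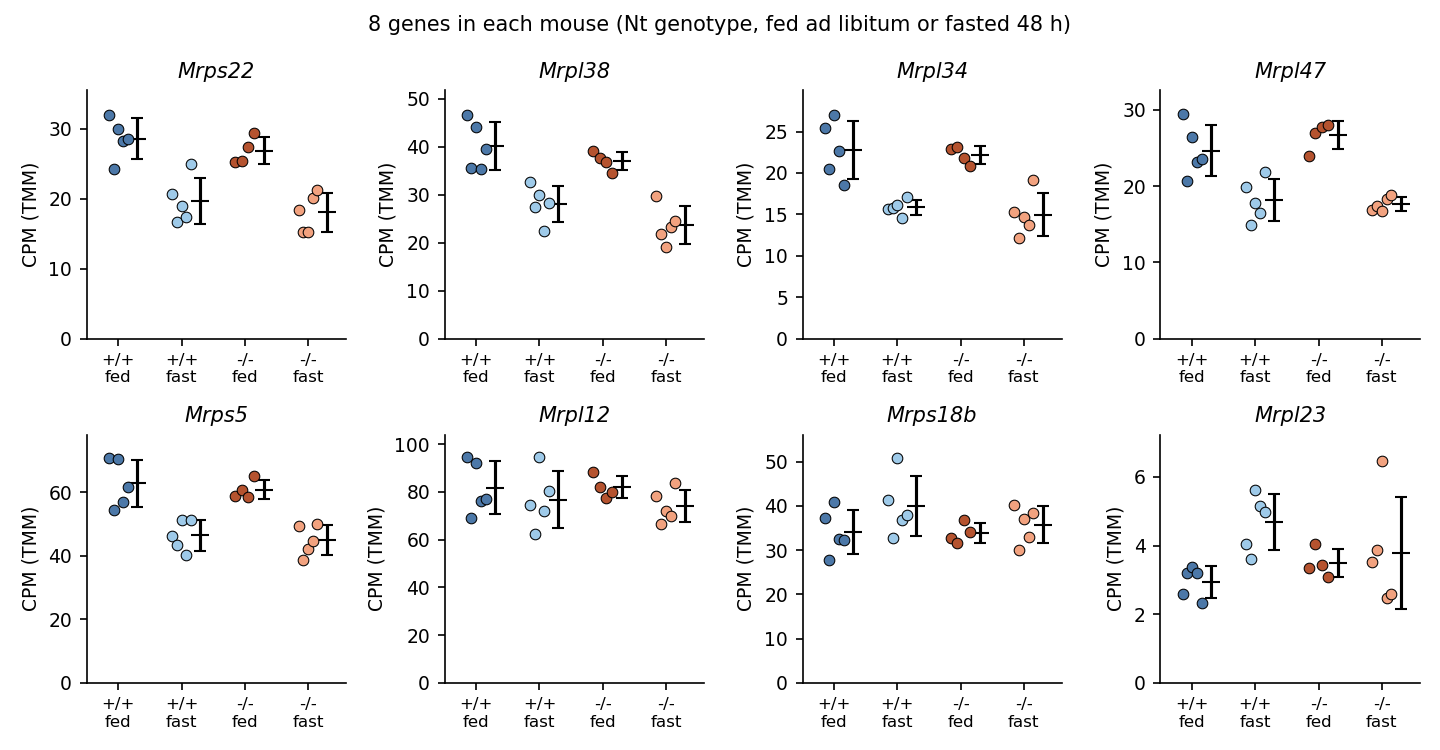
CPM of 8 members in each mouse (vertical axes start at 0; points, mice; bars, mean ± SD of the group; horizontal axis, *Nt* genotype and diet). *Mrps22*, *Mrpl38*, *Mrpl34*, *Mrpl47*, and *Mrps5* are lower in fasted mice of both genotypes, *Mrpl12* and *Mrps18b* overlap between diets, and *Mrpl23* is higher in fasted *Nt*+/+ mice.

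The fasting effects of the genotypes, measured in different mice, were set side by side gene by gene. Of the members called lower, 20 were shared, which is 83.3% of the *Nt*+/+ list and 71.4% of the *Nt*-/- list. Those called in *Nt*+/+ mice only were *Mrpl3*, *Mrpl15*, *Mrps15*, and *Mrps24*, and 8 were called in *Nt*-/- mice only, *Mrps27* and *Mrpl49* among them. In both genotypes 67 members lay below 0 and 5 above 0, and 6 had opposite signs. Across the 78 members the fasting effects correlated with a Pearson r of 0.86, a value across genes that are not independent replicates and that share the libraries of each genotype. Neither the shared lists nor this correlation was set against all genes, so the agreement is not shown to be particular to the family. For 12 members (15.4%), all 10 fasted mice were below all 9 fed mice, against 3.64% of all genes.

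By subunit, 15 of 51 large-subunit members fell (29.4%) and 1 rose (1.96%) in *Nt*+/+ mice (median log2 fold change, -0.17). Of 27 small-subunit members 9 fell (33.3%, with a median of -0.23), or 8 of 26 (30.8%) without *Mrps36*. Among all genes, 10.4% fell and 11.2% rose. In *Nt*-/- mice 19 of 51 (37.3%) and 9 of 27 (33.3%) fell (medians, -0.19 and -0.22), against 12.6% of all genes. Without *Mrps36* the latter was again 8 of 26 (30.8%). Of the 46 members with a bacterial counterpart 16 fell in each genotype (34.8%). Of the 31 specific to mitochondria, with *Mrps36* in neither class, 7 fell in *Nt*+/+ (22.6%) and 11 in *Nt*-/- mice (35.5%). *Mrps18a* and *Mrps18b*, though related to bacterial S18, were placed in the class specific to mitochondria. Over members, the effect had little relation to transcript length (Spearman rho, 0.05 and -0.06) or to TPM (-0.04 and 0.02), as a description across 78 genes of the same libraries.

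Loss of neurotensin did not move any member past the threshold. In ad libitum–fed mice 0 members were called (all genes, 0.00559%, which is *Nts* alone), 0 had an unadjusted p under 0.05, and DESeq2 called 0. The member log2 fold changes of *Nt*-/- over *Nt*+/+ ran from -0.15 to 0.25 (median, -0.03; all genes, 0 to 2 decimals). Of the members, 75.6% lay below 0, against 50.4% of all genes, a description across genes of the same libraries. The smallest p values were those of *Mrpl33* (-0.11 ± 0.08, SE), *Mrpl9* (-0.11 ± 0.08), and *Mrpl46* (-0.15 ± 0.13), each with an adjusted p of 1 in edgeR's test.

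In fasted mice 0 members were called by edgeR and 0 by DESeq2 (all genes, 0.00559%), and 2 members (2.56%) had an unadjusted p under 0.05, against 9.14% of all genes. These were *Mrpl13* and *Mrpl38*. *Mrpl13* was at 31.6, 30.8, 29.9, 26, and 32.7 CPM in fasted *Nt*+/+ and at 25.8, 24.5, 25.4, 26.8, and 31.0 CPM in fasted *Nt*-/- mice, and the groups overlapped. Its log2 fold change was -0.17 ± 0.08 (SE; adjusted p = 0.519, edgeR), that of *Mrpl38* was -0.25 ± 0.11 (adjusted p = 0.522), and that of *Mrps18a* was -0.19 ± 0.09 (adjusted p = 0.576). Member values ran from -0.30 to 0.19 (median, -0.04; all genes, -0.01), and 73.1% of members against 52.7% of all genes lay below 0.

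The difference in the effect of fasting between genotypes was tested as an interaction. It called 0 members and 0 genes of all tested (0%), DESeq2 called 0 members, and 0 members had an unadjusted p under 0.05, against 2.71% of all genes. The smallest p values belonged to *Mrpl24* of the exit tunnel (-0.14 ± 0.08, SE), *Mrpl23* (-0.55 ± 0.32), and *Mrpl49* (-0.22 ± 0.15), each with an adjusted p of 1. The standard error of this difference was 0.14 at the median over members, which is of the size of the median fasting effect itself, so small differences between genotypes were not detectable.

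By position, 40 members overlapped another annotated gene, 26 of them a protein-coding one. On the same strand as a protein-coding gene, reads of *Mrps6*, *Mrps24* (with *Urgcp*), *Mrps34* (with *Nme3*), and *Mrpl53*, which lies wholly within *Gm42688*, could be divided wrongly. Their values are uncertain. Other members, *Mrpl33* with *Gm43809* among them, overlapped a same-strand gene that is not protein-coding. A count that is not whole can mean reads divided among genes. For 15 members the deposited count was not whole in every mouse, *Mrpl47*, *Mrpl24*, *Mrpl13*, and *Mrps27* among them. For 38 members it was whole in every mouse. For 26 members the start of a protein-coding gene lay on the opposite strand, head to head, within 1000 bases. *Mrpl46* and *Mrps11* form such a pair, with starts that overlap by 412 bases, and without knowing whether counting used the strand their reads cannot be told apart there. They had log2 fold changes of -0.43 and -0.32 in *Nt*+/+ and -0.36 and -0.32 in *Nt*-/- mice, and only *Mrpl46* of the pair was called. Of 23 partners that are not members and were tested, 3 fell (13.0%) and 1 rose (4.35%) in *Nt*+/+ mice, and 5 fell (21.7%) and 1 rose in *Nt*-/- mice. Of all genes, 10.4% and 12.6% fell, so the share in *Nt*+/+ mice was near the background. The partner that rose was *Fau*, a cytosolic ribosomal protein gene whose start lies 59 bases from that of *Mrpl49*. *Fau* rose by 0.51 ± 0.09 (SE) and 0.54 ± 0.09 on the log2 scale, whereas *Mrpl49* had -0.22 ± 0.10 and -0.44 ± 0.11, the second of which was called. *Mrpl51* and its partner *Ncapd2*, a condensin subunit 100 bases away, both fell in both genotypes (*Mrpl51*, -0.37 ± 0.08 and -0.36 ± 0.08; *Ncapd2*, -0.30 ± 0.09 and -0.38 ± 0.10).

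Promoters were searched for the sites of factors known to act on nuclear genes for mitochondrial proteins, because many members moved together. RefSeq windows (GRCm38.p6) of 300 bases, from 250 before to 50 after a start, were matched by symbol for 69 of the 78 members. The letters searched, on both strands, were GCATGCGC (NRF1 core), CCGGAAG (ETS/GABP core), CACGTG (E-box), and AAGATGGCG (YY1 core), and the end of the ETS/GABP core can share its last letters with the start of the YY1 core. The ETS/GABP core was in the windows of 37.7% of members (26 of 69) and 9.93% of all genes, the NRF1 core in 11.6% (8 of 69) and 3.05%, the YY1 core in 11.6% and 1.64%, and the E-box in 7.25% and 8.09%. Among genes tested here, which are the expressed ones, the shares were 18.8%, 5.5%, 3.26%, and 11.2%. Of the 29 members with a window that were called lower in either genotype, 9 held the ETS/GABP core, 6 the YY1 core, 2 the E-box, and 0 the NRF1 core. Of the other 40, 17, 2, 3, and 8 did. No test was made of these counts, and a match of letters is not a site in use.

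The windows of 4 members that fell in both genotypes are shown for these letters, and that of *Mrpl32*, which was not called, for its run of NRF1 cores. Each is given 5′ to 3′ on the strand of the gene, in lower case with motif letters in capitals. *Mrps22* (chr9:98601630-98601929, minus strand) holds the ETS/GABP core 11 bases before its start, and *Mrpl34* (chr8:71464676-71464975, plus strand) holds it 37 bases before. *Mrpl42* (chr10:95501900-95502199, minus strand) holds the YY1 core 27 bases after its start. *Mrpl36* (chr13:73330759-73331058, plus strand) holds an E-box and a YY1 core, 43 and 31 bases before. *Mrpl32* (chr13:14612988-14613287, minus strand) holds 4 matches of the NRF1 core, 2 of which overlap.
Mrps22: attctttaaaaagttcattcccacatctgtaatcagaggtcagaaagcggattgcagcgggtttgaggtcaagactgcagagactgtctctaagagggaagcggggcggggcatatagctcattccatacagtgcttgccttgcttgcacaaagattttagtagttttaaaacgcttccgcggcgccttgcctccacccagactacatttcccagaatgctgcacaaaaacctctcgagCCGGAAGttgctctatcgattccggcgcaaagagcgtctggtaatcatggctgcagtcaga
Mrpl34: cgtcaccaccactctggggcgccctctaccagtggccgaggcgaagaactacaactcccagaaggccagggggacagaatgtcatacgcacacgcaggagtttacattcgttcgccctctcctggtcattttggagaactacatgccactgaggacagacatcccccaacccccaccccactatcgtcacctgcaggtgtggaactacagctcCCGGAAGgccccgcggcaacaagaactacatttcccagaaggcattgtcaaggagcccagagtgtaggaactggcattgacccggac
Mrpl42: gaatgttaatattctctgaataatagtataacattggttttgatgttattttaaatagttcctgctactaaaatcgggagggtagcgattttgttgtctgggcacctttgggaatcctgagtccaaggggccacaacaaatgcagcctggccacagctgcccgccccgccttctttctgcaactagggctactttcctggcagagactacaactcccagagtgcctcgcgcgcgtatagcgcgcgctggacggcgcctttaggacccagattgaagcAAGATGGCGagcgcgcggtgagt
Mrpl36: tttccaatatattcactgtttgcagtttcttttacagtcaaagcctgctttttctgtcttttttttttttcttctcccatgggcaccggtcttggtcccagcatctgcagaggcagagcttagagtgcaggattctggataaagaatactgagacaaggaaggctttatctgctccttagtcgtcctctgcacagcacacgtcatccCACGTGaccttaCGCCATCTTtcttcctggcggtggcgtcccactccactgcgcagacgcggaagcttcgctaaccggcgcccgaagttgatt
Mrpl32: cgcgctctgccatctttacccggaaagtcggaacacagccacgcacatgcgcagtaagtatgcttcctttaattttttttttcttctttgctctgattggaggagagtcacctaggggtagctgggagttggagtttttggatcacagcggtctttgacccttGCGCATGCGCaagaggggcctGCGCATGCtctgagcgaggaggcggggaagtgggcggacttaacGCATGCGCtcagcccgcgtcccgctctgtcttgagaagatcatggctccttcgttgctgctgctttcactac

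The 4 members shown as fallen had the log2 fold changes given above, and *Mrpl42* had -0.46 ± 0.10 (SE) in *Nt*+/+ and -0.44 ± 0.10 in *Nt*-/- mice. *Mrpl32* had -0.14 ± 0.09 and -0.14 ± 0.09. Of factors known to bind these motifs, only the mRNAs of *Nrf1*, *Gabpa*, *Yy1*, and *Myc* were looked at, and none was called. *Nrf1* had log2 fold changes of 0 (to 2 decimals; SE, 0.07) and -0.04 ± 0.08, *Gabpa* of 0.02 ± 0.07 and 0.09 ± 0.07, and *Yy1* of -0.07 ± 0.08 and -0.02 ± 0.09. *Myc*, whose product binds E-boxes, had 0.90 ± 0.33 (SE; adjusted p = 0.0539, edgeR) and 0.46 ± 0.35 (adjusted p = 0.363), so that its value in *Nt*+/+ mice lay next to the threshold. Of 9 regulators of mitochondrial biogenesis, only *Ppargc1b*, a coactivator, was called, lower in both genotypes (-0.34 ± 0.10 and -0.56 ± 0.11). *Pprc1*, a related coactivator, had 0.02 ± 0.13 and -0.30 ± 0.13.

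Other genes of mitochondrial translation are given by list, with the share called lower set against 10.4% of all genes in *Nt*+/+ and 12.6% in *Nt*-/- mice. Of the genes for the 5 mitoribosome proteins that carry other names, 3 fell in each genotype. *Ptcd3* (for a small-subunit protein) was at 75.9 to 82.9 CPM in fed and 52.0 to 66.9 CPM in fasted *Nt*+/+ mice (log2 fold change, -0.48 ± 0.07, SE). *Chchd1* and *Gadd45gip1* also fell, and *Dap3* (-0.05 ± 0.07 and -0.06 ± 0.08) and *Aurkaip1* (-0.18 ± 0.07 and -0.17 ± 0.08) were not called. Of 13 translation factors 6 fell in each genotype (46.2%), and the others were not called, with *Mtfmt* (0.11 ± 0.09 and 0.13 ± 0.10) and *Oxa1l* (0.10 ± 0.07 and 0.12 ± 0.07) above 0. *Tufm*, the elongation factor that brings transfer RNAs to the ribosome, fell by 0.51 ± 0.10 and 0.65 ± 0.10 (SE) on the log2 scale, and *Mtif2*, the initiation factor, by 0.47 ± 0.08 and 0.38 ± 0.08. Of 20 genes for aminoacyl-tRNA synthetases and related enzymes 7 fell in *Nt*+/+ (35.0%) and 9 in *Nt*-/- mice (45.0%). The smallest p values were those of *Yars2* (-0.72 ± 0.09 and -0.80 ± 0.09) and *Wars2* (-0.69 ± 0.12 and -0.72 ± 0.13). *Iars2* rose in both (0.26 ± 0.07 and 0.32 ± 0.07). Values of this list ran from -2.09 to 0.26 in *Nt*+/+ and from -0.80 to 1.05 in *Nt*-/- mice.

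Of 27 genes for assembly and ribosomal RNA modification, 2 fell (7.41%) and 3 rose (11.1%) in *Nt*+/+ mice, shares near those of all genes (10.4% and 11.2%). In *Nt*-/- mice 6 fell (22.2%) and 2 rose (7.41%), against 12.6% and 12.5%. *Fastkd2*, which acts on mitochondrial ribosomal RNA, fell in both (-0.61 ± 0.08 and -0.63 ± 0.09; SE), *Mettl17* fell in *Nt*-/- mice (-0.56 ± 0.10) and was not called in *Nt*+/+ mice (-0.20 ± 0.09), and *Trub2*, a pseudouridine synthase, rose in both (0.50 ± 0.10 and 0.40 ± 0.11). Of 13 genes for upkeep and transcription of mitochondrial DNA, 4 fell (30.8%) and 1 rose in *Nt*+/+ mice and 3 fell (23.1%) and 1 rose in *Nt*-/- mice. *Lrpprc*, which stabilizes mitochondrial mRNAs, fell by 0.52 ± 0.08 and 0.57 ± 0.08 on the log2 scale, and *Polg*, the mitochondrial DNA polymerase, by 0.28 ± 0.07 and 0.44 ± 0.08. Of the 13 mRNAs of mitochondrial DNA itself, 5 fell in *Nt*+/+ (38.5%) and 3 in *Nt*-/- mice (23.1%), *mt-Nd2* by 0.63 ± 0.14 and 0.62 ± 0.15 and *mt-Nd3* by 0.53 ± 0.13 and 0.39 ± 0.13.

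Set beside the members, the mRNAs for proteins of the cytosolic ribosome went the other way. Of 81 tested, 35 rose (43.2%, against 11.2% of all genes) and 2 fell in *Nt*+/+ mice, and 55 rose (67.9%, against 12.5%) and 2 fell in *Nt*-/- mice (median log2 fold changes, 0.29 and 0.34). In *Nt*+/+ mice 34 rose with RLE scaling, 55 with upper quartile scaling, and 51 in DESeq2's test. In *Nt*-/- mice 58, 65, and 64 rose in the same order, and 0, 2, and 0 fell. *Rps14* rose by 0.48 ± 0.09 and 0.49 ± 0.09 (SE) on the log2 scale, and *Rpl17* by 0.49 ± 0.10 and 0.53 ± 0.11. The pair that fell was *Rpl22l1* and *Rps27l*, paralogs of cytosolic ribosomal proteins. The nuclear genes for subunits of the respiratory chain and of ATP synthase, taken as a single list, had medians below 0 (-0.19 and -0.13). Of 78 tested, 23 fell (29.5%) and 1 rose in *Nt*+/+ mice and 17 fell (21.8%) and 2 rose in *Nt*-/- mice. *Uqcrb* and *Atp5k* had the smallest p values in *Nt*+/+ mice (-0.44 ± 0.07 and -0.53 ± 0.09), and *Ndufb2* and *Atp5j* in *Nt*-/- mice (-0.46 ± 0.07 and -0.36 ± 0.07). The medians of the members and of the cytosolic list kept opposite signs with size factors of the RLE type, upper quartile scaling, and DESeq2.

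**Figure D5:**
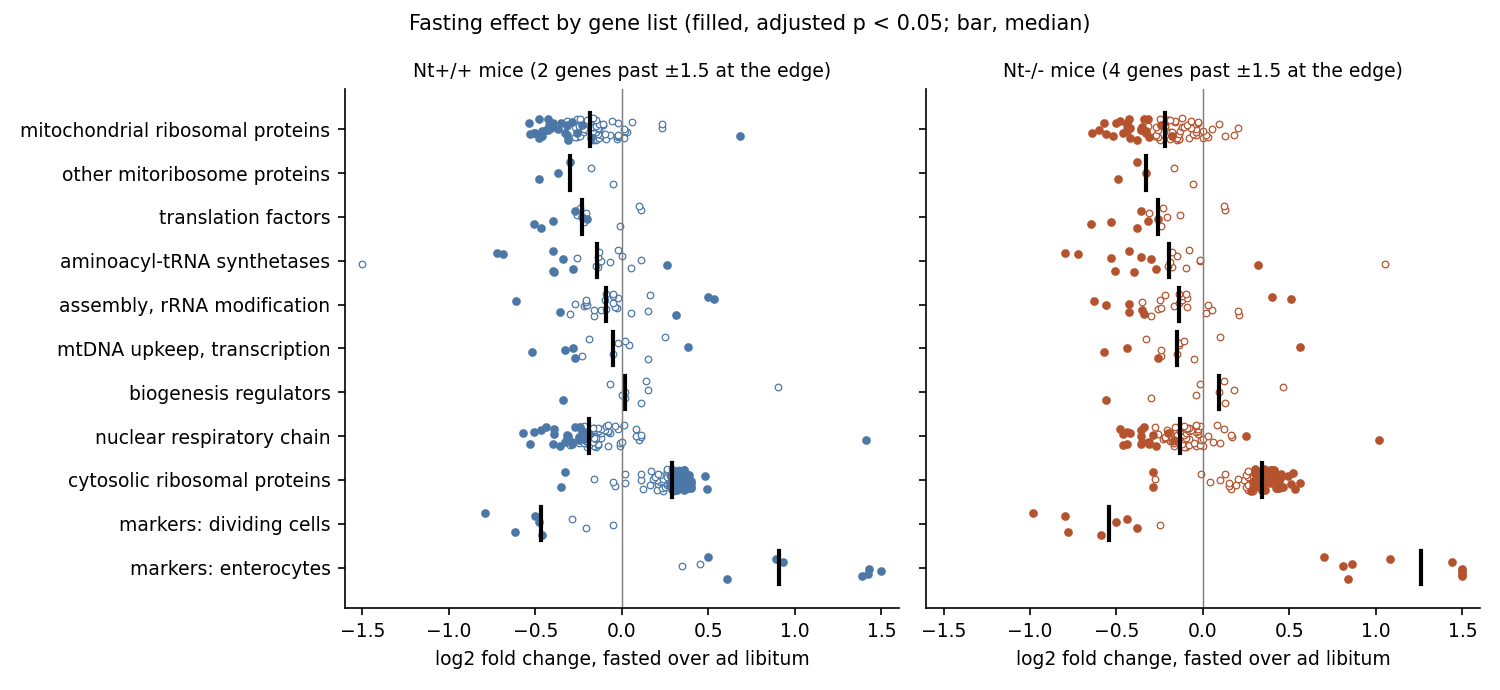
Log2 fold change with fasting (horizontal axis, fasted over ad libitum–fed) of each gene, by list, in *Nt*+/+ (left) and *Nt*-/- (right) mice; filled points had an adjusted p under 0.05, bars are medians, and the few genes beyond the axis are drawn at its edge. The mitochondrial ribosomal protein genes have medians of -0.19 and -0.22, the cytosolic ribosomal protein genes of 0.29 and 0.34.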

How the data were processed

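RNA from crypts of 19 mice was made by the authors into ribosomal RNA–depleted libraries and sequenced as single-end reads, which per the labels were trimmed with Trimmomatic 0.39 and quantified with RSEM on GRCm38. The deposited expected count of RSEM is an estimated count per gene, not normalized, and divides reads among genes that share them. The deposited TPM is scaled per length by the authors. RSEM's version and strand setting are not given in the sources used here. Expected counts were rounded. Totals ranged from 9059457 to 35068711.

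Groups followed the titles. The 17875 genes passing filterByExpr were fitted in edgeR 4.0.16 (R 4.3.3; TMM; quasi-likelihood) with 1 coefficient per group, and p values were adjusted by Benjamini-Hochberg over all of them, with calls under 0.05. The standard error is the absolute log2 fold change over the root of F. Log2 CPM used a prior count of 2. Scripts were tested on simulated data. Members and lists were chosen with earlier results of these data known. Named members were the 5 highest and 5 lowest by TPM, the 6 lowest and highest called with fasting, the 3 smallest p in other comparisons, and members fixed for their role; *Mrpl32*, *Mrpl51*, *Mrpl3*, *Mrpl15*, *Mrps15*, *Mrps24*, *Mrps27*, *Mrps11*, *Mrps34*, *Mrpl53*, the pseudogene, the head-to-head partners, *Nrf1*, *Gabpa*, *Yy1*, *Mtfmt*, *Oxa1l*, *Iars2*, *Rpl22l1*, and *Rps27l* were added after their values were seen. In other lists the 2 smallest p per fasting comparison were named. Alternatives were RLE and upper quartile scaling, DESeq2 1.42.0, other filters, a replicate block, sex, the other label of 1 mouse, and leaving out mice. Replicates are mice, and where litters are not given the p values measure the spread between these mice.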

Additional observations from a re-analysis of the deposited data

Results flagged for a closer look

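Of 132 groups of 4 or 5 mice examined, for the members' mean and the named members, 2 held a mouse whose gap to the nearest other mouse was a large share of the group's range, and chance alone flags about 1 group in 20. *Mrpl33* was at 23.6 CPM in replicate 3 of the fasted *Nt*+/+ mice and at 26 to 26.8 CPM in the other 4. *Mrps18a* was at 21.4 CPM in replicate 1 of the ad libitum–fed *Nt*-/- mice and at 20.7 to 20.8 CPM in the other 3, so that gap is small in CPM.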

How the results depend on the processing

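The median log2 fold change of the members stayed below 0 under all 29 alternatives with fasting in *Nt*+/+ mice (-0.24 to -0.15 when 1 mouse was left out) and in *Nt*-/- mice (-0.24 to -0.19), and no member was called in a genotype comparison or the interaction under any. Genotype and interaction medians lay near 0 and changed sign with some settings. The count of members that fell in *Nt*+/+ mice was 24, with 17 to 31 when 1 mouse was left out. In *Nt*-/- mice it was 28, with 18 to 29, and 17 without the 2 fasted mice of lowest depth, chosen after seeing the data. A replicate block from file names raised the *Nt*+/+ count to 37 (40 in *Nt*-/-), and one from titles to 34 (39). The labels do not say that a number marks a litter or batch, and not every same-numbered pair correlated above 0.1, so no block was used in the report. By file name, same-numbered mice correlated more (mean r = 0.227; 24 of 27 pairs above 0.1) than others (mean r = -0.0565; 12 of 108), 18 of 19 mice correlated best with their own number, and the mouse numbered 2 had the lowest members' mean in 4 of 4 groups, a hint from the data that these numbers carry shared variation. By title 19 of 27 pairs were above 0.1. The 1 member that rose in *Nt*+/+ mice was 0 to 1 when 1 mouse was left out, 0 with no filter or the other label of 1 mouse, and 2 with either replicate block. The cause of these shifts was not tested. Uncalled effects changed sign for *Mrpl13* in *Nt*+/+ mice (-0.07 to 0.02 when 1 mouse was left out, with 0.01 and 0.02 the values above 0), and in *Nt*-/- mice for *Mrpl23* (-0.03 with the file-name block; -0.17 to 0.25 when 1 mouse was left out), *Mrps18c* (0.03 without the 2 mice of lowest depth; -0.09 to 0.01 when 1 mouse was left out), and *Mrpl30* (-0.004 with no filter, -0.0049 with sex as a covariate, -0.0013 with the other label of 1 mouse; -0.02 to 0.05 when 1 mouse was left out).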
